A study of Mus musculus with 8 samples.

Results

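Stat3 and genes grouped here as STAT3 targets and feedback inhibitors were followed in fibroadipogenic progenitors (FAPs). These are a stromal population of muscle able to become fibroblasts or fat cells. The 10 genes were taken by symbol from a deposited table of 24419 genes, and they comprise Stat3 itself, the feedback inhibitors Socs3, Socs1, Socs2 and Cish, the kinases Pim1, Pim2 and Pim3, and the transcriptional regulators Bcl3 and Bcl6. All 10 passed the filter on low counts, as did 13646 genes in all. The cells came from hindlimb muscle of male C57BL/6J mice and were sorted, freshly, as cells positive for SCA-1 and Hoechst and negative for CD31, CD45, α7-integrin and propidium iodide. In the knockdown group (n = 3 libraries) the mice had KPCY mouse pancreatic cancer cells implanted orthotopically that carried a lentiviral vector against miR-27a-3p. In the scrambled group (n = 3) the implanted KPCY cells carried a scrambled sequence, and the sham group (n = 2) underwent sham surgery. The injected volume was 50 µL, and the lines had been selected over 7 days with puromycin at 2 µg/mL. The vectors were thus in the implanted cells and not in the sorted progenitors, and the labels used here give no age or time of collection.

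Cytokines of the interleukin-6 family bind receptors that share the gp130 chain, and the Janus kinases on these receptors phosphorylate STAT3, which pairs, enters the nucleus and switches on genes. Among these are its own inhibitors: SOCS3 binds gp130 and blocks the kinases, while SOCS1 mainly restrains interferon signalling, and CISH and SOCS2 are classical products of STAT5 under growth hormone and related cytokines. PIM kinases are serine/threonine kinases that are active as soon as they are made. BCL3 is an atypical inhibitor of NF-kappa-B that acts in the nucleus, and BCL6 is a transcriptional repressor.

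STAT dimers bind the palindrome TTCNNNGAA, which reads the same on both strands. It was looked for in RefSeq promoter windows of the build GRCm38.p6, which run from 250 bases before to 50 bases after an annotated start, and 9 of the 10 genes had at least 1 such window. Of these, 3 genes held the palindrome (Socs3, Cish and Bcl6), 33.3% of 9, where 9.55% of 27025 genes with a window held it. It stood 154 bases before the start of Socs3, at the start of Cish and again 11 bases after it, and 168, 122 and 88 bases before the inner start of Bcl6. The other window of Bcl6 held it once more, 118 bases before its start. Pim1 held none in either window, nor did Stat3, Socs1, Pim2, Pim3 or Bcl3 in theirs. The windows of Socs3 (chr11:117969317-117969616, - strand), Cish (chr9:107296409-107296708, + strand), Bcl6 (inner start, chr16:23981234-23981533, - strand) and Pim1 (outer start, chr17:29490535-29490834, + strand) are printed, the first 3 because they hold the palindrome and Pim1 because it holds none and had the smallest p of the 10 below. Capitals mark the palindrome. A match is a description of these letters and shows no binding.
Socs3: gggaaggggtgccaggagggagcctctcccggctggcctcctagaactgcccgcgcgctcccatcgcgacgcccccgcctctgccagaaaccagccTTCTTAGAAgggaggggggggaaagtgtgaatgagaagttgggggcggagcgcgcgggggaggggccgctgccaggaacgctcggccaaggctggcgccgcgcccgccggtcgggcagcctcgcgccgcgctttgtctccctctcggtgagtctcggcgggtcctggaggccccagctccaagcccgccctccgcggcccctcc
Cish: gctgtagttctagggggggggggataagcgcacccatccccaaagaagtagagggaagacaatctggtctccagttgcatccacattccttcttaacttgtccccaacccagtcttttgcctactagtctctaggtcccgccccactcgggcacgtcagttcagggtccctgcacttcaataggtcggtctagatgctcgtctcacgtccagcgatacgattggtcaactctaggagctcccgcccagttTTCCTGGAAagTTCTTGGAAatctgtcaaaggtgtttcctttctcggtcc
Bcl6: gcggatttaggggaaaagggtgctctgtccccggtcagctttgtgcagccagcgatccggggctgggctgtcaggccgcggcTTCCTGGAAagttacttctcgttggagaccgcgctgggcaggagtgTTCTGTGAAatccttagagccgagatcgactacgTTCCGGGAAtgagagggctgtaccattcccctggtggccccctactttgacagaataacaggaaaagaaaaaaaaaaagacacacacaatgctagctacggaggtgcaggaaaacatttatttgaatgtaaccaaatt
Pim1: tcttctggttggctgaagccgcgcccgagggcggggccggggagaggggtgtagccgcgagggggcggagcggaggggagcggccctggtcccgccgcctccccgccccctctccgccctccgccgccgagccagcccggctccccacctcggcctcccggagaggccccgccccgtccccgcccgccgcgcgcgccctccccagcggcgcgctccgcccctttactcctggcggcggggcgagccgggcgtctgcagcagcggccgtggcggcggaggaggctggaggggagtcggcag

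The libraries held between 15647436 and 28340450 counts. The first principal component held 61.1% of the variance. Knockdown libraries lay on it between -39.5 and -32.3, scrambled libraries 1, 2 and 3 at 115.5, -12.3 and 92.0, and sham libraries at -47.7 and -42.1, so the main results are also given without scrambled library 2 and with it as the only scrambled library. The 7 progenitor markers were all detected. Their summed level was 41580, 46640 and 40850 normalised CPM (counts relative to TMM-scaled library size) for knockdown, 29710, 40580 and 24900 CPM for scrambled and 47360 and 38660 CPM for sham mice, in the order of replicate numbers. The lowest sums were thus those of scrambled libraries 1 and 3, the libraries that also held most of the changes below, and the part of this in the results was not tested. Such a sum follows its most abundant markers, and the 7 did not move alike. Pdgfra stood at 1477, 1449 and 1467 CPM in knockdown, 1576, 1586 and 1519 in scrambled and 1256 and 1588 in sham libraries. Without scrambled library 2, edgeR called 1 of the 7 higher and 5 lower in scrambled against sham libraries. That fit called 25.4% of all genes higher and 25.6% lower. Markers of other cells summed to at most 52.3 CPM for macrophages, 7.72 for neutrophils, 18.3 for epithelial tumour cells, 77.4 for muscle stem cells, 181 for pericytes and 1257 for tenocytes. Lists whose sums set the scrambled libraries apart were those of muscle fibres, with 8 of 8 markers in the table (47.0 to 57.3 CPM in knockdown, 68.3 to 241 in scrambled and 32.8 to 61.4 in sham libraries), mature adipocytes, with 4 of 4 (0.411 to 0.949, 1.48 to 2.65 and 0 to 0.446), lymphocytes, with 7 of 7 (0.335 to 0.667, 0 to 0.211 and 0.446 to 0.759), and endothelium, with 7 of 7 (470.1 to 554, 367 to 430.2 and 503 to 512). The endothelial sum was lower in scrambled libraries while the list's median log2 change against sham was 0.28, and Pecam1, which encodes CD31, averaged 43.5 ± 7.44, 55.6 ± 17.7 and 25.0 ± 6.83 CPM in knockdown, scrambled and sham libraries. Of all these markers only Lep, of adipocytes, was at 0 in every library; the part of these cells in the results was not tested either. The gene of the miR-27a precursor had 0 reads in each knockdown library, 12, 12 and 3 in scrambled and 0 in each sham library.

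The first question was how progenitors of mice given scrambled KPCY cells differ from those of sham mice. Stat3 rose 2.67-fold, Socs3 rose 3.58-fold and Pim1 rose 8.75-fold. These were 3 of the 10 genes, all higher, where 1.1% of the 13646 genes were called higher and 0.476% lower by edgeR's quasi-likelihood test (Benjamini-Hochberg adjusted p under 0.05). In 7 of the 10 genes (Stat3, Socs3, Socs2, Cish, Pim1, Pim3 and Bcl3) every scrambled library lay above every sham library, as it did in 20.2% of all genes, and none of the 10 lay wholly below, as 20.8% of all genes did. The same 7 were higher at an unadjusted p under 0.05, where 16.7% of all genes were higher and 12.5% lower. DESeq2 called 6 of the 10 higher, where it called 9.68% of all genes higher and 5.52% lower. Limma-voom and edgeR's legacy method called the same 3 genes, where they called 0.733% and 0.777% of all genes higher and 0.374% and 0.198% lower. The median log2 change of the 10 was 1.31, beside 0.00 over all genes tested. In RNA from whole sorted populations a change in the share of cells that express a gene and a change in the RNA per cell cannot be told apart.

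Stat3 stood at 230.0, 200.4 and 239.8 CPM in knockdown libraries 1 to 3, at 599, 343 and 529.9 in the scrambled ones and at 190.4 and 177 in sham libraries 1 and 2. All 3 scrambled libraries were above the other 5, with library 2 the lowest of them. Its log2 change was 1.42 ± 0.25 (SE) in scrambled against sham libraries (edgeR, adjusted p = 0.0372). Stat3 (ENSMUSG00000004040.16, mm10, chromosome 11 from 100885098 to 100939540, - strand) shares 72 exon bases with Stat5a on the other strand, whose count was at most 652 where that of Stat3 was at least 3010.

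Socs3 was by far the most abundant of the 10. It stood at 1281, 1382 and 1421 CPM in knockdown, 4301, 2204 and 4320.3 in scrambled and 827 and 1190 in sham libraries, in the order of replicate numbers. The groups did not overlap, and scrambled libraries 1 and 3 were nearly equal. Its log2 change in scrambled against sham libraries was 1.84 ± 0.34 (edgeR, adjusted p = 0.039). Per kb of exon, Socs3 reached 471 ± 25.0 CPM (SD, n = 3) in knockdown, 1248 ± 421 (n = 3) in scrambled and 349 ± 88.9 (n = 2) in sham libraries. Among 13121 tested genes with an exon length it ranked 66, 58 and 55 in knockdown, 18, 39 and 14 in scrambled and 125 and 71 in sham libraries. Socs3 (ENSMUSG00000053113.3) lies on chromosome 11 from 117966079 to 117970047 on the - strand, and no other annotated exon overlaps its exons.

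The other inhibitors did not share one course. Socs1 stood at 24.7, 31.3 and 28.1 CPM in knockdown, 24.5, 34.0 and 19.1 in scrambled and 26.1 and 27.01 in sham libraries, and its groups overlapped in each pair (scrambled against sham log2 change -0.03 ± 0.25; edgeR, adjusted p = 0.935). Socs2 stood at 26.8, 25.7 and 19.2 CPM in knockdown, 39.8, 21.2 and 39.8 in scrambled and 20.8 and 8.65 in sham libraries. Its scrambled library 2 was close to sham library 1, and the 1.19 ± 0.41 log2 change was not called (edgeR, adjusted p = 0.114). Cish, a homologue of the SOCS genes with 2 palindromes in the window shown above, had the widest span of the 10. It stood at 3.28, 6.98 and 2.10 CPM in knockdown, 39.5, 4.82 and 28.5 in scrambled and 1.20 and 1.06 in sham libraries. Scrambled libraries 1 and 3 were far above the rest, and scrambled library 2 lay within the range of the knockdown libraries. The fitted change of Cish was 21.4-fold (log2 4.42 ± 1.01) and missed the threshold (edgeR, adjusted p = 0.0602). In sham libraries it rested on 19 reads each. The exons of Cish overlap those of 2 genes on the other strand, Gm17040 and Gm17041, which are not rows of the table.

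Pim1 had the smallest p of the 10 and ranked 41 by p among all genes tested. It stood at 42.4, 54.8 and 41.1 CPM in knockdown, 238, 88.8 and 247 in scrambled and 18.0 and 25.7 in sham libraries. The 3 groups were separate from each other, knockdown libraries lying between the others. The log2 change in scrambled against sham libraries was 3.13 ± 0.45 (edgeR, adjusted p = 0.022). Pim1 (ENSMUSG00000024014.8, chromosome 17 from 29490753 to 29496112, + strand) shares 488 exon bases with Gm26885 on the other strand, which is not a row of the table. The counting strand is not given in the sources used here, so reads of such pairs may not be separated.

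Pim3 ran in parallel with a smaller span, at 58.6, 76.1 and 64.6 CPM in knockdown, 352, 90.4 and 267 in scrambled and 42.0 and 53.3 in sham libraries. No scrambled library overlapped the other groups, though library 2 was nearer to the knockdown libraries than to scrambled libraries 1 and 3. The log2 change of Pim3 was 2.31 ± 0.49 and just missed the threshold (edgeR, adjusted p = 0.0546). Pim2 was scarce, with 33 to 86 reads a library. It stood at 1.95, 4.19 and 1.79 CPM in knockdown, 3.37, 1.78 and 2.08 in scrambled and 2.85 and 1.90 in sham libraries, overlapping throughout (scrambled against sham log2 change 0.05 ± 0.53; adjusted p = 0.950).

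Bcl3 stood at 30.0, 51.6 and 29.7 CPM in knockdown, 56.1, 51.6 and 37.5 in scrambled and 30.4 and 22.1 in sham libraries. It was the 1 gene of the 10 whose scrambled library 2 was not the nearest of its group to the sham libraries while the scrambled and sham groups stayed apart (log2 change 0.89 ± 0.31; edgeR, adjusted p = 0.116). Bcl6 had the opposite layout, at 178, 114 and 157 CPM in knockdown, 71.0, 127 and 72.9 in scrambled and 91.7 and 140.4 in sham libraries. Scrambled libraries 1 and 3 were the lowest of all 8 and scrambled library 2 lay between the sham libraries (scrambled against sham log2 change -0.36 ± 0.31; edgeR, adjusted p = 0.432).

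**Figure D1:**
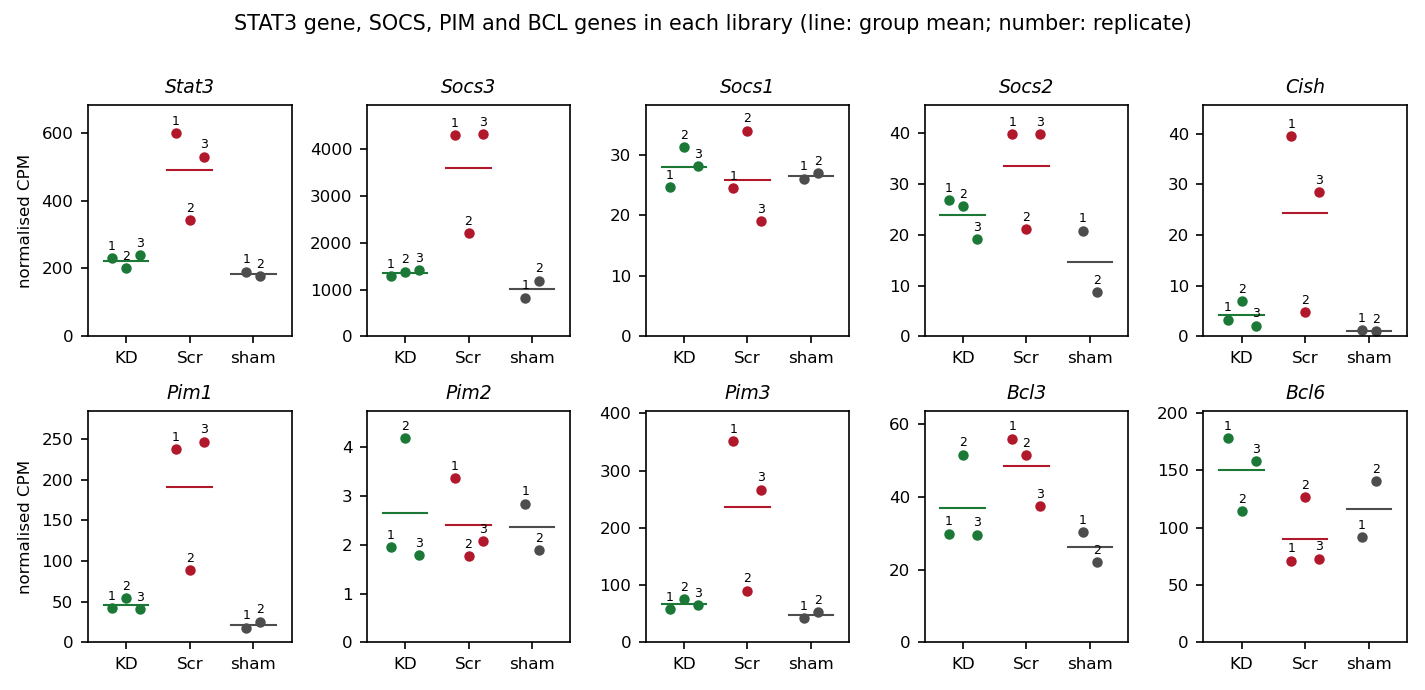
Normalised CPM (linear axes from 0) of the 10 genes in knockdown (KD), scrambled (Scr) and sham libraries, 1 point per library with its replicate number and a line at the group mean. Scrambled libraries 1 and 3 stand high for Stat3, Socs3, Cish, Pim1 and Pim3, and scrambled library 2 lies between them and the other groups for Stat3, Socs3, Pim1 and Pim3.

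The scrambled libraries were therefore uneven in a way that differed from gene to gene. Relative to the sham mean, scrambled library 2 stood 0.90 log2 CPM higher for Stat3, 1.15 for Socs3, 2.04 for Pim1 and 0.93 for Pim3, where libraries 1 and 3 stood 1.70 and 1.53, 2.12 and 2.12, 3.46 and 3.52, and 2.89 and 2.49 higher. With scrambled library 2 as the only library of its group, Stat3 (0.90 ± 0.15), Socs3 (1.13 ± 0.20), Pim1 (2.02 ± 0.22) and Pim3 (0.92 ± 0.18) were called higher than sham, on the assumption that a lone library varies like the other groups; 2.21% of all genes were then called higher and 1.34% lower. In that fit Cish was at 2.09 ± 0.71 and Socs2 at 0.54 ± 0.43, neither of them called. Without scrambled library 2 instead, 25.4% of all genes were called higher and 25.6% lower, and 8 of the 10 genes were called, with Stat3 (1.63 ± 0.15), Socs3 (2.10 ± 0.20), Socs2 (1.46 ± 0.32), Cish (4.93 ± 0.49), Pim1 (3.47 ± 0.20), Pim3 (2.70 ± 0.19) and Bcl3 (0.86 ± 0.31) higher and Bcl6 (-0.69 ± 0.23) lower.

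**Figure D2:**
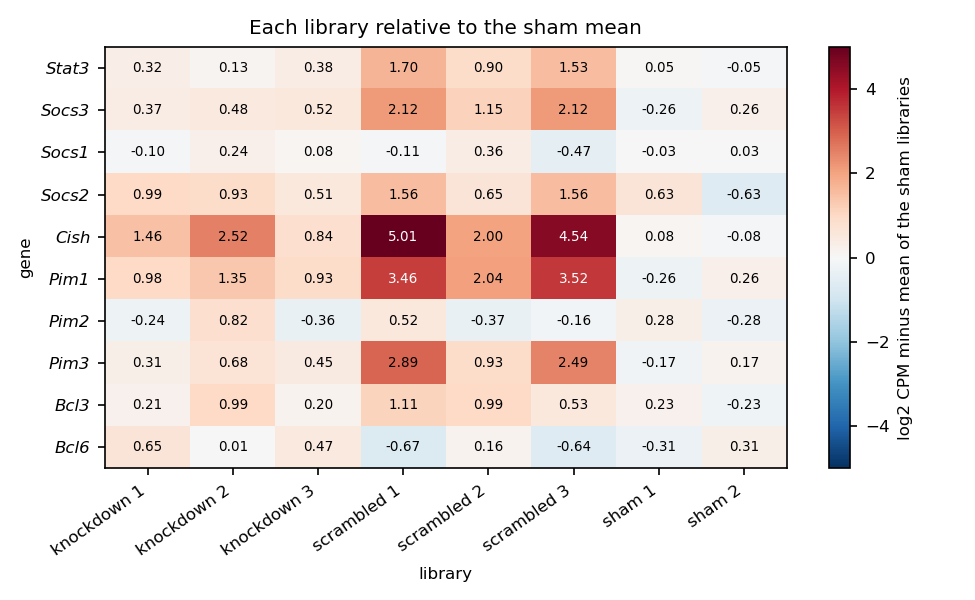
Log2 CPM of each gene (rows) in each library (columns) minus the mean of the sham libraries; red is higher and blue lower. Scrambled libraries 1 and 3 reach 5.01 and 4.54 for Cish and 3.46 and 3.52 for Pim1, while the value farthest from 0 among those of Socs1 and Pim2 is 0.82, for Pim2 in knockdown library 2.

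The 3 calls rested on few mice. Those of Stat3 and Socs3 were lost when any single library other than scrambled library 2 was left out, and that of Pim1 when any library other than scrambled library 1 or 2 was, with adjusted p over 16 alternatives from 6.94e-06 to 0.332 for Stat3, 1.55e-06 to 0.390 for Socs3 and 4.23e-11 to 0.271 for Pim1. Their log2 changes kept their sign in all 16, from 0.90 to 1.63, 1.13 to 2.11 and 2.02 to 3.47.

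Knockdown against scrambled libraries asks what inhibition of miR-27a-3p in the implanted cells goes with in the host's progenitors. Of the 10 genes 0 were called by edgeR, where 0.044% of all genes were called lower and 0.00733% higher. Every knockdown library lay below every scrambled library for Stat3, Socs3, Pim1 and Pim3, which is 4 of the 10 genes, where 16.7% of all genes did, and above it for 0, where 17.5% did. At an unadjusted p under 0.05 there were 5 genes lower (these 4 and Cish) and 1 higher (Bcl6), where 18.5% of all genes were lower and 13.9% higher. DESeq2 called the same 5 lower, where it called 11.2% of all genes lower and 5.8% higher. Limma-voom and edgeR's legacy method called 0 of the 10, where they called 0.0366% and 0.00733% of all genes lower and 0% higher. The median log2 change of the 10 was -0.81, beside 0.01 over all genes.

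Stat3 averaged 223 ± 20.5 CPM (SD, n = 3) in knockdown and 491 ± 132 (n = 3) in scrambled libraries, with a log2 change of -1.13 ± 0.22 (edgeR, adjusted p = 0.061). Socs3 averaged 1361.5 ± 72.2 and 3608 ± 1216 CPM in knockdown and scrambled libraries (log2 -1.41 ± 0.29, adjusted p = 0.0669). Pim1 averaged 46.1 ± 7.52 CPM in knockdown and 191 ± 88.8 in scrambled libraries (-2.05 ± 0.36, adjusted p = 0.061). In each of these the knockdown libraries lay close together and the scrambled libraries far apart. Pim3 averaged 66.4 ± 8.90 CPM in knockdown and 236 ± 133 in scrambled libraries (-1.83 ± 0.41, adjusted p = 0.0715), and Cish 4.12 ± 2.54 and 24.3 ± 17.7 CPM (-2.58 ± 0.71, adjusted p = 0.075). Bcl6 averaged 149.7 ± 32.4 CPM in knockdown and 90.2 ± 31.5 in scrambled libraries (0.73 ± 0.28, adjusted p = 0.121), with knockdown library 2 below scrambled library 2. Socs1, Socs2, Pim2 and Bcl3 overlapped between the groups, with log2 changes from -0.49 to 0.11 and adjusted p from 0.315 to 0.901.

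The calls depended on scrambled library 2. Without it edgeR called 26.6% of all genes lower and 27.3% higher, and 7 of the 10 genes, with Stat3 (-1.34 ± 0.13), Socs3 (-1.67 ± 0.17), Socs2 (-0.75 ± 0.27), Cish (-3.11 ± 0.33), Pim1 (-2.40 ± 0.16) and Pim3 (-2.23 ± 0.16) lower and Bcl6 (1.05 ± 0.21) higher. With it as the only scrambled library, 0 were called (4 at an unadjusted p under 0.05), where 0.525% of all genes were lower and 0.194% higher. Stat3 was then at -0.62 ± 0.14, Socs3 at -0.70 ± 0.18, Pim1 at -0.95 ± 0.19, Pim3 at -0.45 ± 0.17 and Cish at -0.28 ± 0.51.

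**Figure D3:**
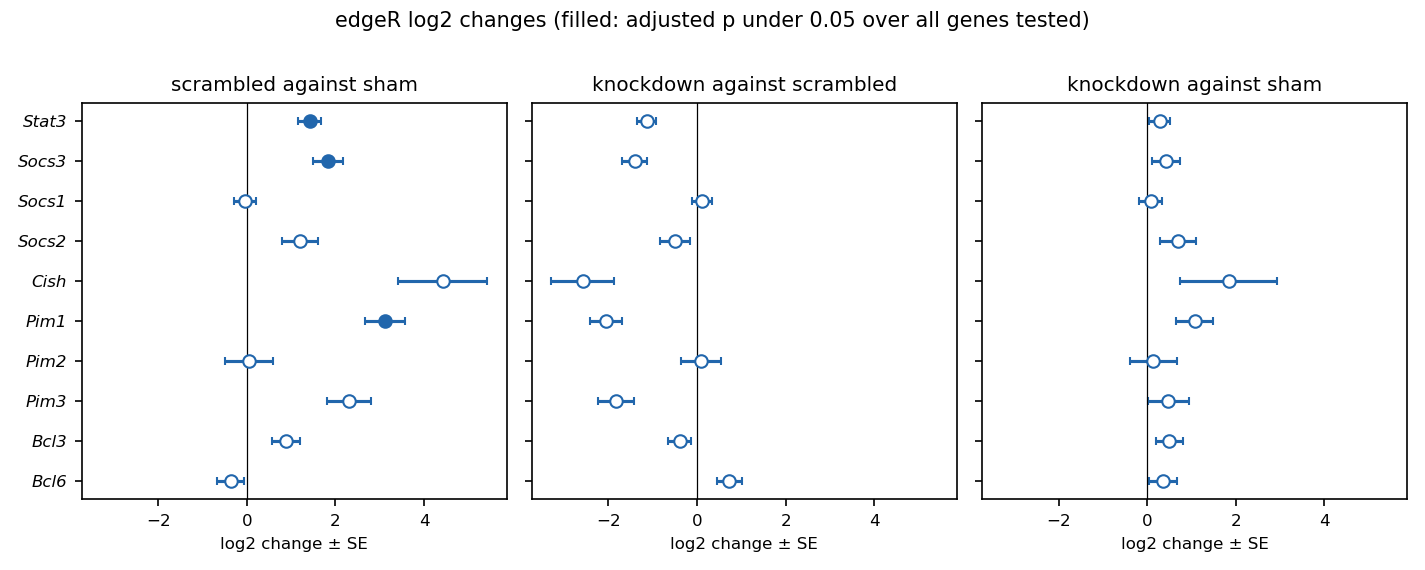
EdgeR log2 changes (horizontal axis, points with bars of 1 SE) of the 10 genes in the 3 comparisons; filled points passed an adjusted p of 0.05 over all genes tested. Stat3, Socs3 and Pim1 are filled for scrambled against sham, and no point is filled in the other panels.

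Knockdown compared with sham libraries shows what differed from mice with no tumour. By edgeR 0 of the 10 genes were called (all adjusted p = 1), where 0.00733% of all genes were called higher and 0% lower. Only Pim1 was higher at an unadjusted p under 0.05, where 1.67% of all genes were higher and 0.696% lower, and DESeq2 (0.176% of all genes higher and 0.00733% lower), limma-voom and the legacy method (0.00733% higher and 0% lower each) called 0. All 10 log2 changes were positive, from 0.08 for Socs1 to 1.84 for Cish, with a median of 0.46 beside 0.00 over all genes. The knockdown libraries all lay above both sham libraries for 5 genes, Stat3, Socs3, Cish, Pim1 and Pim3, where 13.8% of all genes did, and below them for 0, where 13.5% did. Pim1 averaged 46.1 ± 7.52 CPM (n = 3) in knockdown and 21.8 ± 5.45 (n = 2) in sham libraries, a log2 change of 1.08 ± 0.42 that was not called. It was called without scrambled library 2 (edgeR, adjusted p = 0.0473, over 16 alternatives from 0.0279 to 1), when the scrambled libraries were left out of the fit, and with scrambled library 2 as the only one of its group. In the first of these fits 0.17% of all genes were called higher and 0.0664% lower, and in the last 0.539% and 0.201%. Stat3 (0.28 ± 0.24) and Socs3 (0.43 ± 0.32) had small changes relative to their errors, and Cish (1.84 ± 1.09) a large error. The 3 comparisons share their groups pairwise, so their changes are not independent of each other.

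Of the levels per kb of exon, only Socs3 stood clear of the other 9 in each group. In sham libraries the next were Pim3 at 19.6 ± 3.29, Stat3 at 19.3 ± 0.980 and Bcl6 at 17.3 ± 5.15 CPM per kb, within their spread of each other, followed by Bcl3 at 10.6 ± 2.38, Socs1 at 9.12 ± 0.229 and Pim1 at 6.49 ± 1.62. Socs2, Pim2 and Cish were at 1.55 ± 0.902, 0.849 ± 0.240 and 0.176 ± 0.0156. The order changed in scrambled libraries, where Pim3 (97.3 ± 54.9), Pim1 (56.9 ± 26.4) and Stat3 (51.5 ± 13.9) overlapped and stood above Bcl3 (19.6 ± 3.92), Bcl6 (13.5 ± 4.71) and Socs1 (8.89 ± 2.59). In knockdown libraries Pim3 (27.4 ± 3.67), Stat3 (23.5 ± 2.15) and Bcl6 (22.3 ± 4.84) again came next to Socs3, with Bcl3 at 14.99 ± 5.08 and Pim1 at 13.7 ± 2.24.

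The genes whose profile was most like that of a given gene were found by the root mean square distance between log2 CPM profiles, each centred on its mean over the 8 libraries, among 10276 other genes with a mean of at least 5 CPM. For Stat3 the nearest was Junb, a subunit of AP-1, at 0.0775, followed by Fam43a, Larp1b, Map1lc3b and Foxc1 at 0.122 to 0.133. For Socs3 they were Mitf, Ssh2, Xdh, Glis3 and Igf2bp2 (0.128 to 0.145). Pim1 had more distant neighbours, Arid5a, Slc10a6, Gpnmb, Zbtb16 and Phyhd1 (0.217 to 0.283). For Bcl6 they were Crot, Arhgef6, Caprin2, Hfe and Rcbtb2 (0.146 to 0.166). These distances describe the same 8 libraries and carry no test.

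Upstream of STAT3, 1 receptor gene passed edgeR's test over all 8 libraries and no kinase did. Of 15 genes of receptors that signal through JAK and STAT, the median log2 change was 0.48 in scrambled against sham libraries. EdgeR called 1 of them higher and 0 lower, where 1.1% of all genes were called higher. It was Osmr, the oncostatin M receptor, at 173, 138 and 171 CPM in knockdown, 466, 344 and 339 in scrambled and 104.7 and 86.5 in sham libraries (log2 2.00 ± 0.22; edgeR, adjusted p = 0.012). Its scrambled libraries 2 and 3 were nearly equal. DESeq2 called 7 of the 15 higher (Ifngr1, Ghr, Osmr, Lifr, Ifnar2, Il6ra and Il4ra) and 0 lower. It called 9.68% of all genes higher and 5.52% lower. Limma-voom called Osmr alone, where it called 0.733% of all genes higher. At an unadjusted p under 0.05 by edgeR, 7 were higher and 2 lower, where 16.7% and 12.5% of all genes were. Il6ra, which encodes the interleukin-6 receptor, stood at 49.4, 42.9 and 52.4 CPM in knockdown, 191, 80.0 and 218 in scrambled and 46.2 and 47.7 in sham libraries (1.80 ± 0.38, adjusted p = 0.0543), and Lifr, the leukaemia inhibitory factor receptor, followed the same layout (1.92 ± 0.41, adjusted p = 0.0546). Ghr, the growth hormone receptor, was at 1.11 ± 0.27 (adjusted p = 0.0668). Il6st, which encodes gp130, was abundant, with means of 709 ± 18.8, 753 ± 23.2 and 613 ± 115 CPM in knockdown, scrambled and sham libraries. Its scrambled libraries all lay above both sham libraries, as in 20.2% of all genes, and above all knockdown libraries, as in 16.7%. Its log2 change was 0.295 ± 0.18 in scrambled against sham libraries (edgeR, adjusted p = 0.293). In knockdown against scrambled libraries it was -0.09 ± 0.16 (edgeR, adjusted p = 0.72). Il6st was not among the genes named by rule and was chosen after its values were seen. In knockdown against scrambled libraries 0 of the 15 were called (with an unadjusted p under 0.05, 5 lower and 1 higher, where 18.5% and 13.9% of all genes were; 5 lower by DESeq2, where 11.2% of all genes were, and 0 by limma-voom), led by Osmr (-1.25 ± 0.19, adjusted p = 0.061), Il6ra (-1.76 ± 0.33, 0.061), Lifr (-1.87 ± 0.35, 0.061) and Ghr (-0.73 ± 0.23, 0.0899). In knockdown against sham libraries 0 were called by edgeR, DESeq2 or limma-voom (2 higher at an unadjusted p under 0.05, where 1.67% of all genes were, Osmr at 0.75 ± 0.21 and Il4ra at 0.44 ± 0.18), and Ghr (0.38 ± 0.27) and Ifnar2 (0.22 ± 0.16) came next. Without scrambled library 2, a fit that called 25.4% of all genes higher and 25.6% lower in scrambled against sham and 27.3% higher and 26.6% lower in knockdown against scrambled libraries, edgeR called 8 of the 15 higher and 3 lower in scrambled against sham and 3 higher and 6 lower in knockdown against scrambled libraries. With it as the only scrambled library Osmr and Il6ra were higher in scrambled against sham and lower in knockdown against scrambled libraries, and Osmr was higher in knockdown against sham libraries, where 0.539% of all genes were.

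Of 10 Janus kinases and other STATs, 9 were tested and 0 were called in any comparison by edgeR, limma-voom or the legacy method. DESeq2 called Jak3, a kinase best known from lymphocytes, higher in scrambled against sham libraries, and without scrambled library 2 edgeR called Jak3 and Stat5b higher and Stat5a lower. At an unadjusted p under 0.05 Jak3 was the single member, at log2 1.22 ± 0.40 in scrambled and 1.34 ± 0.40 in knockdown against sham libraries, with a mean of 7.12, 6.47 and 2.82 CPM in knockdown, scrambled and sham libraries. The list's medians were 0.05 in scrambled against sham libraries, 0.03 in knockdown against scrambled and 0.05 in knockdown against sham libraries. Next by p were Stat5b (0.32 ± 0.19), Stat5a (-0.30 ± 0.23) and Stat2 (0.22 ± 0.18) for scrambled against sham, Stat5b (-0.27 ± 0.17), Stat5a (0.30 ± 0.20) and Tyk2 (-0.19 ± 0.14) for knockdown against scrambled, and Stat2 (0.26 ± 0.18), Stat6 (-0.17 ± 0.16) and Tyk2 (-0.15 ± 0.16) for knockdown against sham.

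**Figure D4:**
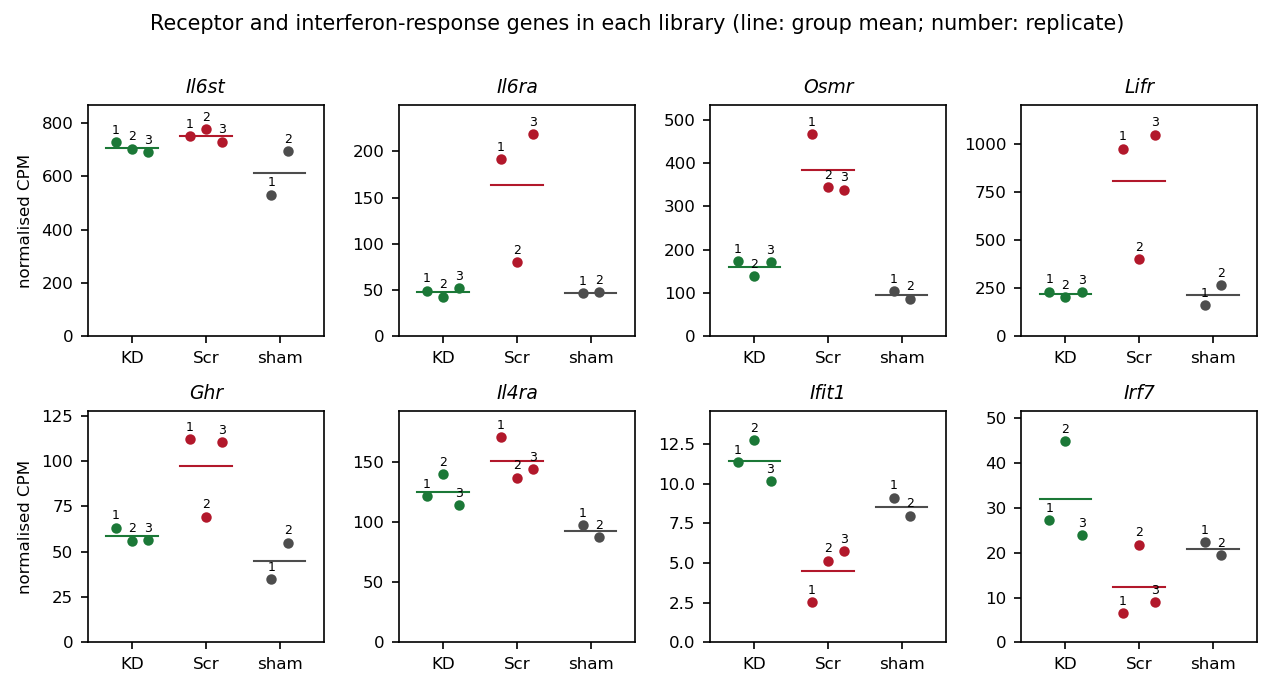
Normalised CPM (linear axes from 0) of the gp130 gene Il6st, the receptor genes Il6ra, Osmr, Lifr and Ghr, of the interleukin-4 receptor gene Il4ra and of the interferon-response genes Ifit1 and Irf7 in knockdown (KD), scrambled (Scr) and sham libraries, 1 point per library with its replicate number and a line at the group mean. Osmr is at 339 CPM or more in the scrambled libraries and at 173 CPM or less in the others, and Ifit1 is at 5.73 CPM or less in the scrambled libraries and at 7.98 CPM or more in the others.

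Other inhibitors of the pathway showed 0 calls in each comparison by edgeR, DESeq2 and limma-voom over all 8 libraries, while without scrambled library 2 edgeR called 2 of the SOCS genes and 3 of the second list below in scrambled against sham libraries, and 3 and 4 in knockdown against scrambled libraries, in a fit that called 25.4% to 27.3% of all genes in each direction. Of the other 4 SOCS genes, Socs7 was at log2 0.75 ± 0.26 in scrambled against sham and -0.64 ± 0.23 in knockdown against scrambled libraries (unadjusted p = 0.0188 and 0.0201), and Socs4, Socs5 and Socs6 ranged from -0.54 to 0.57 over these 2 comparisons. In knockdown against sham libraries the 4 ranged from -0.06 to 0.10, with 0 at an unadjusted p under 0.05. Of 8 PIAS proteins, which restrain STATs in the nucleus, and phosphatases, 2 had a positive and 1 a negative change at an unadjusted p under 0.05 in scrambled against sham libraries, Ptpn1 (0.64 ± 0.24) and Pias1 (0.55 ± 0.22) against Pias3 (-0.59 ± 0.21), with Pias2 next (0.20 ± 0.19). These 3 of 8 stand beside 16.7% of all genes higher and 12.5% lower by the same rule. In knockdown against scrambled libraries Ptpn1 (-0.51 ± 0.21), Pias1 (-0.51 ± 0.20), Pias3 (0.43 ± 0.19) and Ptpn11 (-0.21 ± 0.14) came first, of which Ptpn1 and Pias1 had an unadjusted p under 0.05, as had 18.5% of all genes among those lower. In knockdown against sham libraries 0 had an unadjusted p under 0.05, and Ptpn2 (0.25 ± 0.20) came first, then Pias4, Ptpn6 and Ptpn11.

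Of 25 other reported targets of STAT3 22 were tested, and 10 of them rose and 0 fell in scrambled against sham libraries, with a median log2 change of 1.67, where 1.1% of all genes were called higher. They were Serpina3n (4.43 ± 0.31), Lbp (1.505 ± 0.19), which binds lipopolysaccharide, Lrg1 (3.76 ± 0.49), a secreted leucine-rich glycoprotein, Gadd45g (1.73 ± 0.24), Lcn2 (4.52 ± 0.64), Cebpd (2.06 ± 0.32), Myc (1.70 ± 0.27), Hp (5.97 ± 0.99), Cebpb (2.23 ± 0.42) and Fosl2 (1.64 ± 0.32), by edgeR with adjusted p from 0.000801 to 0.0455. The legacy method called 8 (not Cebpb and Fosl2), limma-voom 9 (not Lcn2 and Hp, but also Junb) and DESeq2 17, where DESeq2 called 9.68% of all genes higher. The list was compiled with earlier results of these libraries known, so its direction is not independent evidence. Those not tested were the fibrinogen genes Fga, Fgb and Fgg. Fga and Fgb had 496 and 373 reads in scrambled library 1 and 0 in every other library. Fgg had 284 reads in scrambled library 1, 4 in sham library 1 and 0 elsewhere. They were named after their values were seen, and the part of such transcripts in the results was not tested. Lbp stood at 530.2, 498 and 525 CPM in knockdown, 1216, 1105 and 952 in scrambled and 384 and 385 in sham libraries, with scrambled library 2 between the other scrambled libraries. Myc stood at 300.2, 329.8 and 303 CPM in knockdown, 654, 380.2 and 655 in scrambled and 191 and 156 in sham libraries, with scrambled library 2 nearer to knockdown. Without scrambled library 2 there were 18 higher and 1 lower, Ccnd1 (25.4% and 25.6% of all genes), and with it as the only scrambled library 14 higher and 0 lower (2.21% and 1.34% of all genes). Of the survival genes, Mcl1 was at 0.57 ± 0.18, while Bcl2l1 stood at 27.5 to 33.7 CPM in knockdown libraries, at 178, 31.8 and 152 in scrambled libraries 1, 2 and 3 and at 29.4 and 28.7 in sham libraries; both were chosen after their values were seen.

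In knockdown against scrambled libraries 1 of the 22 was called, Serpina3n (-2.47 ± 0.24, edgeR, adjusted p = 0.0357), where 0.044% of all genes were called lower. At an unadjusted p under 0.05 there were 15 lower and 1 higher, where 18.5% and 13.9% of all genes were. The median was -1.07, and DESeq2 called 15 lower (11.2% of all genes) and limma-voom 1 (0.0366% of all genes). With scrambled library 2 as the only scrambled library 5 were called lower, Serpina3n, Lcn2, Lbp, Saa3 and Hp (0.525% of all genes), and without it 16 lower and 1 higher (26.6% and 27.3% of all genes). In knockdown against sham libraries 0 were called by edgeR or limma-voom. DESeq2 called 4 higher (Serpina3n, Lrg1, Lcn2 and Hp), where it called 0.176% of all genes higher. At an unadjusted p under 0.05 there were 9 higher (1.67% of all genes), and the median was 0.56. With scrambled library 2 as the only scrambled library edgeR called 9 higher (Serpina3n, Gadd45g, Myc, Cebpd, Lrg1, Lcn2, Fosl2, Hp and Icam1; 0.539% of all genes), and without it 2, Serpina3n and Myc (0.17% of all genes). Those with the smallest p were Serpina3n (1.96 ± 0.28), Lrg1 (2.28 ± 0.50), Icam1 (1.03 ± 0.27) and Lcn2 (2.50 ± 0.65).

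Of 12 tested genes of the interferon response 0 were called by edgeR in any comparison. In scrambled against sham libraries 11 of the 12 had a negative log2 change (median -0.44), and Ifit1 (-0.96 ± 0.36) and Psmb9 (-1.12 ± 0.45) had an unadjusted p under 0.05, as had 12.5% of all genes among those lower, with Irf7 (-0.74 ± 0.47) and Psmb8 (-0.52 ± 0.35) next; DESeq2 and limma-voom called 0. In knockdown against scrambled libraries all 12 were positive (median 0.68) and 5 had an unadjusted p under 0.05 (13.9% of all genes were higher by that rule), led by Ifit1 (1.37 ± 0.32, edgeR, adjusted p = 0.0715), Isg15 (1.09 ± 0.33), Psmb9 (1.32 ± 0.41) and Irf7 (1.35 ± 0.43). DESeq2 called these 4 higher (5.8% of all genes) and limma-voom 0. Without scrambled library 2 edgeR called 5 lower in scrambled against sham (25.6% of all genes) and 7 higher in knockdown against scrambled libraries (27.3% of all genes), and with it as the only scrambled library 0 in both. Ifit1 stood at 11.3, 12.7 and 10.1 CPM in knockdown, 2.55, 5.16 and 5.73 in scrambled and 9.11 and 7.98 in sham libraries, without overlap. In knockdown against sham libraries the median was 0.24, with 0 called by edgeR, DESeq2 or limma-voom and 0 at an unadjusted p under 0.05.

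Of 7 partners of BCL3 and BCL6, the NF-kappa-B subunits BCL3 binds and the co-repressors BCL6 recruits, 0 were called in any comparison by edgeR, DESeq2 or limma-voom. The median log2 changes were -0.13 in scrambled against sham libraries, -0.09 in knockdown against scrambled and -0.21 in knockdown against sham libraries. Without scrambled library 2 edgeR called 1 higher and 2 lower in the first of these and 2 higher and 1 lower in the second, where 25.4% to 27.3% of all genes were called in each direction. Bcor, a co-repressor of BCL6, was at -0.50 ± 0.18 in knockdown against sham libraries (unadjusted p = 0.0215).

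**Figure D5:**
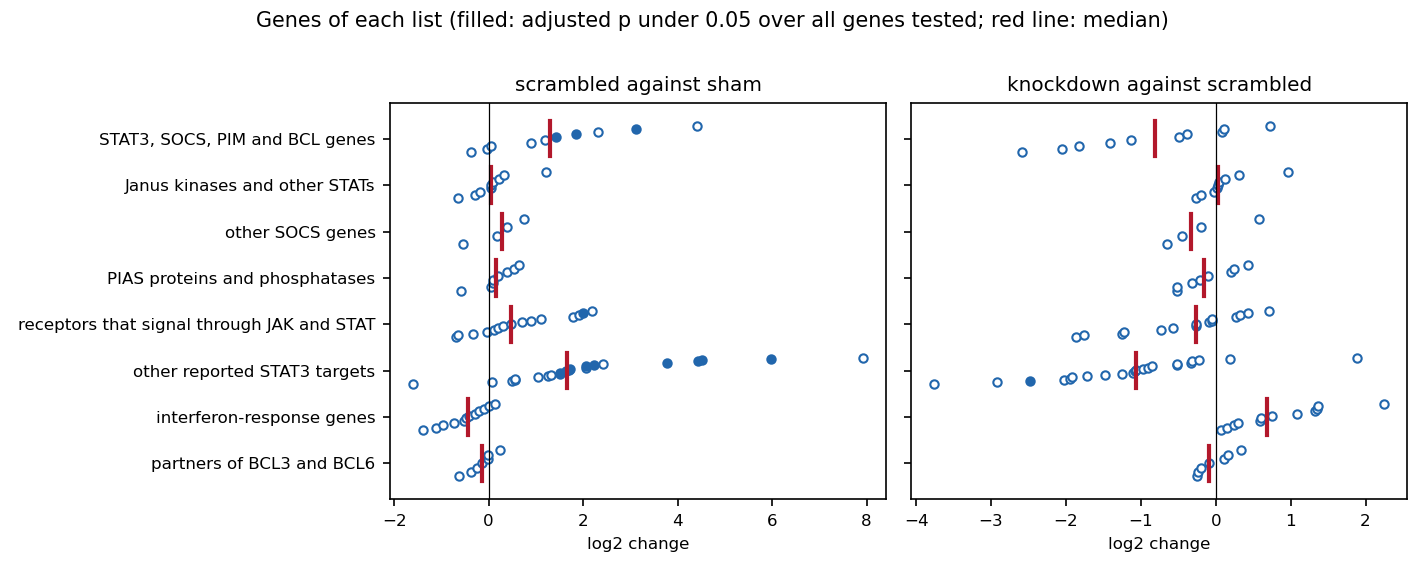
EdgeR log2 change (horizontal axis) of each tested gene of the 8 lists (rows) for scrambled against sham and knockdown against scrambled; filled points passed an adjusted p of 0.05 over all genes tested, and red lines are list medians. The medians of the STAT3 targets (1.67 and -1.07) and of the interferon-response genes (-0.44 and 0.68) lie on opposite sides of 0 in each panel.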

How the data were processed

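RNA of 8 sorted progenitor samples went into stranded mRNA libraries read as paired reads of 59 bases, per the labels. The authors deposited raw counts per gene symbol. The submitters' processing notes name mm10, STAR, Bowtie, bcl2fastq 2.20, R 4.2.1 and DESeq2 1.36.0 with no roles. How reads were counted, on which strand and with which annotation is not given in the sources used here. The labels call the samples biological replicates.

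Counts were analysed in R 4.3.3 with edgeR 4.0.16: filterByExpr (minimum count 10, total 15), TMM, and a robust quasi-likelihood fit of 3 group means over all 8 libraries, so each p also draws on the group not compared. All tests are two-sided, with Benjamini-Hochberg adjustment over 13646 genes and a threshold of 0.05. SE is |log2 change| over the root of the F statistic. Alternatives used DESeq2 1.42.0 and limma 3.58.1. Gene lengths and coordinates came from GENCODE M21 (mm10), whose symbols matched 95.6% of rows; level per kb used the union of all exons, which can be longer than the transcript expressed. Intervals and errors of counts cover reads, not molecules.

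The 10 genes, the 7 other lists and the marker lists were chosen with earlier results of these data known. Named in each other list were all genes called and otherwise up to 4 with the smallest p per comparison; nearest profiles were sought for Stat3, Socs3, Pim1 and Bcl6. Some single-gene results of these lists are not reported here.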

Additional observations from a re-analysis of the deposited data

How the results depend on the processing

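Counts of calls depended strongly on the tool and on single libraries; where a cause is not named, it was not tested. For scrambled against sham, 3 of the 10 genes and 215 of all genes were called. These became 6 and 2074 with DESeq2, 0 and 4 with those groups alone, 3 and 133 with edgeR's legacy method, 4 and 493 with scrambled library 2 alone in its group (chosen after seeing the data), and 0 to 8 and 0 to 6908 when 1 library was left out. For knockdown against scrambled, 0 and 7 became 5 and 2320 with DESeq2, 0 and 0 with those groups alone, 0 and 1 with the legacy method, 0 and 11 with no filter on low counts, 0 and 100 with scrambled library 2 alone, and 0 to 7 and 0 to 7313 when 1 library was left out. For knockdown against sham, 0 and 1 became 0 and 25 with DESeq2, 1 and 101 with those groups alone, 0 and 2 with no filter, 1 and 103 with scrambled library 2 alone, and 0 to 1 and 0 to 32 when 1 library was left out. With the replicate number as a block, the counts were 0 and 16, 0 and 0, and 0 and 0 in the same order of comparisons. The numbers share only a name: deviations of same-numbered libraries correlated from -0.06 to 0.17.

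The changes whose sign turned were not called over all 8 libraries or in the alternative that turned them, though without scrambled library 2 Bcl6 was called lower in scrambled against sham (-0.69) and Socs2 lower in knockdown against scrambled libraries (-0.75). For scrambled against sham, Socs1 was at 0.025 with the replicate block, 0.0078 and 0.14 without scrambled library 1 or 3 (-0.26 to 0.14 over all libraries left out) and 0.36 with library 2 alone. Pim2 was at -0.23, -0.30 and -0.40 without sham library 2, without scrambled library 1 (-0.30 to 0.36 over all left out) and with scrambled library 2 alone, where Bcl6 was at 0.13. For knockdown against scrambled, Pim2 was at -0.15 and -0.38 without scrambled or knockdown library 2 (-0.38 to 0.44 over all left out), and Socs1 at -0.066 without scrambled library 3 (-0.066 to 0.34). With scrambled library 2 alone Socs1 was at -0.28 and Socs2 at 0.16. For knockdown against sham, Pim2 was at -0.13 without sham library 2 and -0.34 without knockdown library 2 (-0.34 to 0.45 over all left out), and Socs1 at -0.0087 without the last (-0.0087 to 0.16).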
